A study of Homo sapiens with 6 samples.

Results

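The genes described here encode the transcription factors that switch on the heat, metal and oxidant responses, together with the proteins they pair with or are held by. They were chosen by gene symbol, with earlier results of these data known. They comprise 10 of the 16809 genes in the table: HSF1, HSF2, MTF1, NFE2L1, NFE2L2, KEAP1, BACH1, MAFF, MAFG and MAFK. All 10 were present and all passed the filter on low values, which asked for an average of 1 TPM or more across the 6 libraries. TPM is a gene's share of the transcripts of a library, corrected for transcript length and scaled to a fixed total of 1000000.

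The libraries came from CAL-27, an established cell line from a human squamous carcinoma of the tongue, in 2 groups of 3. The control group was labelled as normal and named no agent. The other group, ES-Cu, had received elesclomol, an ionophore that carries copper into cells, together with copper at equal ratio, and was collected at 24 h. The sources used here give neither doses nor any vehicle in the controls, no allele or transgene was named, and a single cell line stands for all tumour cells. The submitters' description places the comparison in the study of gene expression during cuproptosis, a cell death set off by copper.

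These regulators are controlled largely as proteins. HSF1 is held inactive by chaperones and, once freed by misfolded proteins, binds heat shock elements in front of chaperone genes, while MTF1 is activated by zinc and binds metal response elements in front of metallothionein genes. NFE2L2, the gene of NRF2, is tethered and marked for degradation by KEAP1. When that restraint is lifted NRF2 pairs with a small MAF protein, MAFF, MAFG or MAFK, on antioxidant response elements. BACH1 uses the same partners on the same elements as a haem-sensitive repressor, and NFE2L1, the gene of NRF1, also pairs with small MAF proteins and is known for raising proteasome genes. Transcript levels therefore show the supply of mRNA for these proteins and not their activity.

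In ES-Cu cells, all 3 small MAF genes and MTF1 rose, with MAFF the furthest at 4.84-fold, and NFE2L2 rose less, at 1.30-fold. BACH1 also rose, by 1.18-fold, on a call that depended on the libraries included. HSF1 and NFE2L1 were lower as deposited and lost that call after median scaling and quantile normalization, NFE2L1 being called higher after median scaling. HSF2 and KEAP1 did not pass the test as deposited. The words rose and fell are kept for genes that limma on log2(TPM + 1), adjusted by Benjamini-Hochberg over 11927 tested genes at a threshold of 0.05, called with the same sign on 3 scales: deposited TPM, TPM scaled by the median of ratios, and quantile-normalized TPM. By that rule 6 of the 10 rose, beside 13.5% of all tested genes, and 0 fell, beside 31.2%. On the deposited scale 6 were called higher (13.6% of all tested genes) and 2 lower (70.0%). After median scaling 9 were called higher (38.0%) and after quantile normalization 8 (31.4%). On either scale 0 were lower, beside 4266 and 4756 of the 11927 tested genes. At an unadjusted p under 0.05 limma gave the same numbers of lower regulators, 2, 0 and 0 on the 3 scales. The share of all tested genes at that unadjusted threshold is not given here. In 7 of the 10 every ES-Cu library lay above every control library (14.0% of all tested genes), in 2 every ES-Cu library lay below (70.3%), and in 1, HSF2, the groups overlapped.

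The 3 scales were needed because the median tested gene had a log2 fold change of -0.50 as deposited, 0.004 after median scaling and -0.07 after quantile normalization. The median of the 10 regulators was 0.30 as deposited, and all 10 lay above the median gene. Fold changes below are ES-Cu against control on the deposited log2(TPM + 1) scale unless another is named, which understates the change of low genes. Sequencing depth is unknown because TPM keeps no read totals, and the labels name no separate cultures for the libraries of a group. The p-values therefore rest on the spread of these libraries alone, and that spread may be technical. Every squamous epithelial marker looked at was detected, with KRT5 at 853 TPM in both groups, KRT14 low at 4.73 and 4.19 TPM, and a summed level over 10 markers of 2721 to 2822 TPM in control and 3060 to 3111 TPM in ES-Cu. SFN rose from 640 to 1233 TPM (log2 fold change 0.95) and KRT6A rose by 0.43, while TP63 (-1.78) and CDH1 (-1.27) fell. As deposited 2 of the 10 were called higher (13.6% of all tested genes) and 6 lower (70.0%). The other lower ones were KRT17 (-0.41), PERP (-0.50), DSG3 (-0.81) and EPCAM (-0.13), not called with the same sign on all scales. Markers of leukocytes, endothelium and fibroblasts summed to 70.2 to 77.0 TPM in control and 53.6 to 58.7 TPM in ES-Cu over the 8 in the table, most of it CD68, a lysosomal gene of macrophages, at 63.6 and 50.9 TPM (-0.32). COL1A1 fell (-1.02), PDGFRB was at 2.23 and 0.903 TPM (-0.76, not called with the same sign on all scales), and PTPRC, CD79A, PECAM1, VWF and COL3A1 had group means of at most 0.130 TPM. The part of these markers in the results below was not tested. In bulk RNA, fewer cells of a type and less RNA per cell cannot be told apart.

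**Figure D1:**
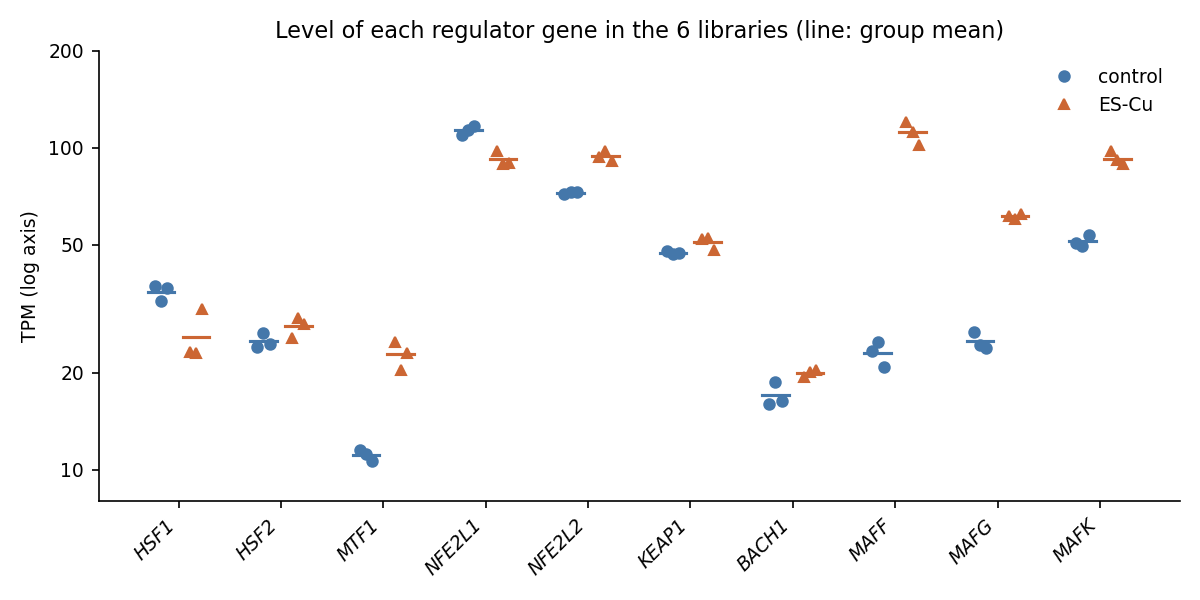
TPM of the 10 regulators in each library (points, 3 control and 3 ES-Cu) with a line at the group mean, on a log axis. The groups stand furthest apart for MAFF, MAFG, MTF1 and MAFK, and overlap for HSF2.

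MAFF, MAFG and MAFK are small basic leucine zipper proteins that lack an activation domain, so that they repress as pairs with each other and activate when paired with NRF2 or NRF1. Start regions were looked up for the regulators in RefSeq (GRCh38.p14), which held 15 windows for 8 of them. The 3 shown are those of the regulators with the highest fold change that have a window, each cropped to the bases upstream of annotated exons of the gene. Capitals mark matches, on either strand, to the heat shock element GAANNTTC or TTCNNGAA, the metal response element TGCACNC or TGCGCNC, or the antioxidant response element TGACNNNGC. Each is read 5′ to 3′ on the strand of its gene, at chr22:38201744-38201881 (+) for MAFF, chr17:81927736-81927985 (-) for MAFG and chr1:37859621-37859842 (-) for MTF1.
MAFF: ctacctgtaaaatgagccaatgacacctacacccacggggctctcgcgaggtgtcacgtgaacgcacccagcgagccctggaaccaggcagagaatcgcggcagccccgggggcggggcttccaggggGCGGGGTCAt
MAFG: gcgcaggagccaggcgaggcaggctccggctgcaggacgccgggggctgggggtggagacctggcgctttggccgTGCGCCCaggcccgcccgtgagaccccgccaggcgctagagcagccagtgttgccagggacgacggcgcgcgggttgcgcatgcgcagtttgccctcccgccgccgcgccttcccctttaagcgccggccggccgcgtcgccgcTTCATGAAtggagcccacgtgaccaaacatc
MTF1: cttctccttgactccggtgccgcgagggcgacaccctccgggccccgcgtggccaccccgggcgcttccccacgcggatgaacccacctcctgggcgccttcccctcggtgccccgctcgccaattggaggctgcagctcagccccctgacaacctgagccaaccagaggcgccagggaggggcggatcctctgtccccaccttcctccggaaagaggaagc
The MAFF stretch held 1 antioxidant response element match, GCGGGGTCA on the reverse strand, beginning 122 bases before the RefSeq start. The MAFG stretch held a metal response element match, TGCGCCC, beginning 175 bases before the start and a heat shock element match, TTCATGAA, beginning 31 bases before it. The MTF1 stretch held no match to these letters. Among all 35116 windows of 250 bases before a start, 11.6% held the heat shock letters, 24.8% the metal letters and 10.9% the antioxidant letters. Over the windows of the 8 regulators the heat shock letters were found for MAFG, the metal letters for HSF2, KEAP1, BACH1 and MAFG, and the antioxidant letters for KEAP1 and MAFF. Counted by window, as those shares are, 1 of the 15 held the heat shock letters, 6 the metal letters and 2 the antioxidant letters. The windows of HSF2 overlap each other. A match describes the letters in the window and is not a measured binding site. The MAFG stretch overlaps the first exon of the divergent transcript MAFG-DT, and the MAFF stretch lies within the annotated span of PLA2G6 on the opposite strand.

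MAFF stood at 23.40, 24.96 and 20.84 TPM in control and at 120.51, 112.25 and 102.22 TPM after ES-Cu. The groups lay far apart, with ES-Cu replicate 3 the lowest of its group. It rose by 2.23 on the log2 scale (SE 0.0757, adjusted p = 1.24e-09, limma). Ranked by TPM among all listed genes, MAFF moved from percentile 65.6 to 69.5 in control to percentile 92.5 to 93.5 in ES-Cu. PLA2G6, the phospholipase gene whose span overlaps that of MAFF, was looked up after the values of MAFF were seen and averaged 4.66 ± 1.18 TPM in control against 1.59 ± 0.295 TPM in ES-Cu (mean ± SD, n = 3, as throughout).

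MAFG went from 26.87, 24.32 and 23.89 TPM in control to 61.54, 59.94 and 62.43 TPM in ES-Cu. All libraries of a group lay close together and the groups were well separated. It rose by 1.26 (SE 0.0581, adjusted p = 9.33e-09, limma), and by 1.80 after median scaling. MAFK, the most abundant small MAF transcript in control, was at 50.58, 49.47 and 53.39 TPM there and at 97.42, 91.29 and 88.78 TPM in ES-Cu. Its groups did not overlap either, and its rise was the smallest of the 3, at 0.84 (SE 0.0522, adjusted p = 7.42e-08, limma).

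Since small MAF proteins can stand in for each other, their transcripts were also added up. The sum was 100.85, 98.75 and 98.12 TPM in control and reached 279.47, 263.48 and 253.43 TPM in ES-Cu, a 2.67-fold higher mean (two-sided exact permutation test, p = 0.1, which is the lowest p attainable with 3 against 3). The make-up of the pool shifted from MAFK to MAFF. MAFF made up 23.2% ± 2.02 of the sum in control and 42.0% ± 1.48 in ES-Cu, and MAFK 51.6% ± 2.48 and 34.8% ± 0.192, each without overlap (exact permutation p = 0.1). The share of MAFG, 25.2% ± 1.25 and 23.1% ± 1.35, overlapped between the groups (exact permutation p = 0.3).

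**Figure D2:**
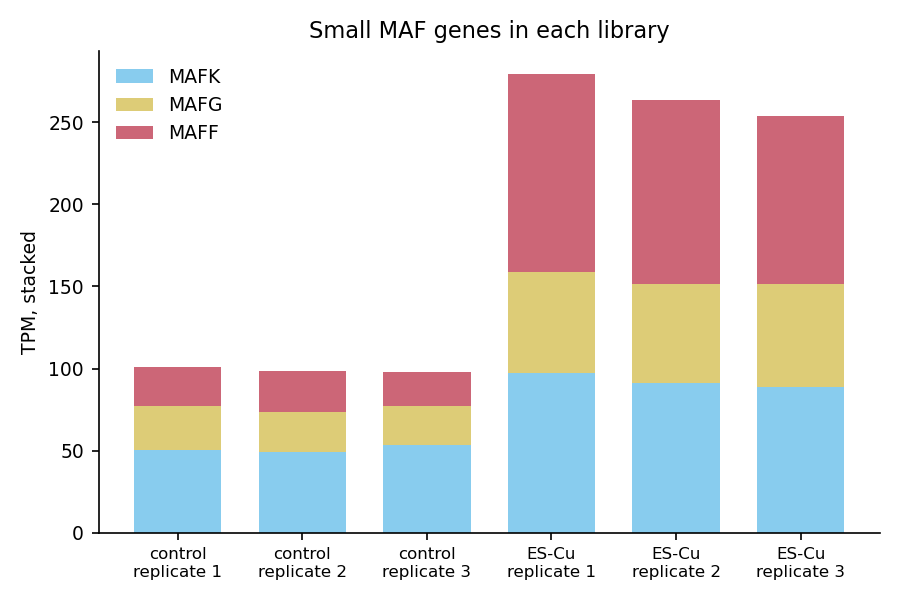
TPM of MAFF, MAFG and MAFK stacked for each library, with the bar axis starting at 0. The sum is 98.1 to 101 TPM in the control libraries and 253 to 279 TPM in the ES-Cu libraries, and the MAFF segment grows most.

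The 3 genes whose pattern over the 6 libraries was nearest to that of MAFF, by Euclidean distance of log2(TPM + 1) centred on the control mean, were CHORDC1 (distance 0.172), USP17L3 (0.238) and CSRNP1 (0.252). CHORDC1, an HSP90 co-chaperone, rose by 2.19, from 97.51, 104.83 and 97.87 to 477.92, 456.82 and 441.50 TPM. CSRNP1, a nuclear protein induced by AXIN1, rose by 2.29 from a low level, 4.09, 4.03 and 4.23 TPM in control and 25.28, 24.65 and 22.33 TPM in ES-Cu. USP17L3 was listed at 0 in all 3 controls and reached 4.41, 3.48 and 3.01 TPM in ES-Cu. It belongs to a family of near-identical copies, so its values are uncertain.

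NFE2L2 stood at 71.65, 73.00 and 72.68 TPM in control and at 93.63, 97.69 and 90.70 TPM in ES-Cu. Every ES-Cu library lay above every control library, and the controls were tightly grouped. It rose by 0.37 (SE 0.0450, adjusted p = 1.38e-05, limma), and by 0.92 after median scaling and 0.65 after quantile normalization. KEAP1, the adaptor that presents NRF2 to a CUL3 ubiquitin ligase, was at 47.75, 46.75 and 47.05 TPM in control and 52.19, 52.49 and 48.26 TPM in ES-Cu. ES-Cu replicate 3 lay only just above the controls, although the groups did not overlap. Its log2 fold change of 0.11 did not pass the test as deposited (adjusted p = 0.0694, limma) and did so without ES-Cu replicate 3 (0.15, adjusted p = 0.0295), after median scaling (0.66, adjusted p = 1.75e-06) and after quantile normalization (0.44, adjusted p = 2.53e-05).

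The ratio of NFE2L2 to KEAP1 within a library, which does not move with a common scaling factor, was 1.501, 1.562 and 1.545 in control and 1.794, 1.861 and 1.879 in ES-Cu. The ES-Cu ratios were all higher, by 0.26 on the log2 scale (exact permutation p = 0.1, the smallest possible here, and 0.12 after Benjamini-Hochberg adjustment over the 6 ratios compared). Of 17 tested genes of the machinery that degrades NRF2 or relieves that degradation, 4 rose (13.5% of all tested genes) and 3 fell (31.2%) on all 3 scales. The list median was -0.29 against -0.50 for all genes. As deposited, 4 were higher (13.6%) and 10 lower (70.0%). Median scaling turned this into 11 higher (38.0%) and 3 lower (4266 of 11927 tested genes). SQSTM1, the autophagy receptor p62 that draws KEAP1 into autophagosomes, rose from 288 to 954 TPM (log2 fold change 1.73). SESN2, a stress-inducible sestrin that promotes KEAP1 breakdown, rose from 7.79 to 70.4 TPM (3.02). The other 2 that rose were GSK3B (0.27) and SKP1 (0.27), parts of the KEAP1-independent route of NRF2 degradation. IKBKB, a kinase bound by KEAP1, fell from 10.6 to 3.94 TPM (-1.23), and the sestrin SESN1 (-1.06) and the KEAP1-binding peptidase DPP3 (-0.77) fell too.

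The 28 tested NRF2 target genes had a median log2 fold change of 0.50, beside -0.50 for all tested genes. As deposited 20 were called higher (13.6% of all tested genes) and 5 lower (70.0%), and 19 rose on all 3 scales (13.5%). SLC7A11, the cystine transporter, was at 3.80, 3.30 and 3.77 TPM in control and 45.51, 38.37 and 42.83 TPM in ES-Cu, a rise of 3.22. The glutamate-cysteine ligase subunits GCLM (1.84) and GCLC (0.49) both rose, by unequal amounts, and NQO1, a quinone reductase often read as a marker of NRF2, rose by 0.31. Those called lower as deposited included TKT (-0.31), ABCC3 (-0.44), EPHX1 (-0.53) and CBR1 (-0.49). On all 3 scales 0 of the 28 fell (31.2% of all tested genes). AKR1C1, an aldo-keto reductase with close paralogs, was the third gene of the list by size (3.15). Its relatives AKR1C2 and AKR1C3 had log2 fold changes of 0.79, a rise, and -0.03, not called as deposited. AKR1C3 was called higher after median scaling (0.48) and after quantile normalization (0.50). Genes named in this and later paragraphs outside the naming rule, such as those given to spell out a small count, were picked after their values were seen.

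BACH1 was at 15.99, 18.78 and 16.31 TPM in control and at 19.40, 20.19 and 20.47 TPM in ES-Cu. The highest control library, replicate 2, came close to the lowest ES-Cu library, but the groups did not overlap. It rose by 0.22 (SE 0.0744, adjusted p = 0.0151, limma), a call that was lost without control replicate 1 (0.18, adjusted p = 0.0636) and without control replicate 3 (0.20, adjusted p = 0.0553). The ratio of BACH1 to NFE2L2 was 0.235 ± 0.0193 in control and 0.213 ± 0.0108 in ES-Cu, and the groups overlapped (log2 difference -0.14, exact permutation p = 0.3). After quantile normalization it was 0.05 (exact permutation p = 0.6). The difference was -0.07 without control replicate 2.

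The 3 tested genes that remove or export BACH1 were called lower as deposited, as were 70.0% of all tested genes. Of the 3, 1 fell on all 3 scales (31.2% of all tested genes). Their median log2 fold change was -0.69, beside -0.50 for all tested genes. FBXO22, the ubiquitin ligase subunit for haem-bound BACH1, fell from 36.7 ± 2.16 to 22.4 ± 0.300 TPM (-0.69). FBXL17, another such subunit, was at 7.76 and 4.01 TPM (-0.80, not called under quantile normalization), and the nuclear exporter XPO1 had -0.19, which turned to 0.36 after median scaling. Of 10 tested BACH1 targets, 8 are also on the NRF2 list. As deposited 8 were called higher (13.6% of all tested genes) and 2 lower (70.0%), and 7 rose on all 3 scales (13.5%). The median was 0.91. HMOX1, the haem oxygenase long studied as a BACH1-repressed gene, was at 13.82, 12.81 and 13.02 TPM in control and rose to 1297, 1301 and 1373 TPM (6.54). TXNRD1, a thioredoxin reductase, rose from 248 to 1021 TPM (2.04). The haem transporter gene SLC48A1 (-0.33) and the biliverdin reductase gene BLVRB (-0.45) were lower as deposited, with changes after median scaling of 0.18 and 0.10.

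NFE2L1 was the most abundant of the 10 in control, at 109.85, 113.81 and 116.68 TPM, and stood at 97.72, 88.80 and 89.96 TPM in ES-Cu. Every ES-Cu library lay below every control library. Its log2 fold change was -0.30 as deposited (SE 0.0493, adjusted p = 1.64e-04, limma), smaller in size than that of the median gene. It turned to 0.25 after median scaling (adjusted p = 3.70e-04) and was -0.05 after quantile normalization (adjusted p = 0.359), so no direction is given. Its rank hardly moved, from percentile 91.8 to 92.2 in control to percentile 91.6 to 92.0 in ES-Cu. The ratio of NFE2L1 to NFE2L2 went from 1.53, 1.56 and 1.61 in control to 1.04, 0.909 and 0.992 in ES-Cu. That brought both CNC activators to a like level without overlap between the groups (log2 difference -0.68, exact permutation p = 0.1, 0.12 adjusted over the 6 ratios).

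NFE2L3, the related CNC factor, fell from 49.31, 51.89 and 50.94 to 25.59, 24.33 and 26.28 TPM (-0.97). NFE2 and BACH2, the other relatives in the table, stayed under 1 TPM on average. NRF1 is made as a membrane protein of the endoplasmic reticulum that must be pulled out, deglycosylated and clipped. Of 11 tested genes of that path and its turnover, 4 rose (13.5% of all tested genes) and 0 fell (31.2%) on all 3 scales. The median was 0.08, beside -0.50 for all tested genes. The 4 were VCP (0.52), UFD1 (0.69) and NPLOC4 (0.26), the extraction ATPase and its cofactors, and FBXW7 (0.85), a ubiquitin ligase subunit that targets NRF1. DDI2, the protease that clips NRF1, went from 11.7 to 7.37 TPM (-0.60, not called on the other scales). Of 33 tested proteasome genes, 15 rose (13.5% of all tested genes) and 0 fell (31.2%) on all 3 scales, with a median of 0.06. As deposited, 15 were higher (13.6%) and 5 lower (70.0%), or 3 lower without ES-Cu replicate 1. After median scaling 32 were higher (38.0%) and 0 lower (4266 of 11927 tested genes). After quantile normalization 23 were higher (31.4%) and 3 lower (4756 of 11927 tested genes). PSMD12, a lid subunit, rose from 45.9 to 109 TPM (1.22), the base ATPase gene PSMC4 from 283 to 506 TPM (0.84) and the base scaffold gene PSMD1 from 203 to 314 TPM (0.63).

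MTF1, the zinc-sensing factor of metallothionein genes, was the lowest of the 10 in control, at 11.52, 11.21 and 10.63 TPM, and reached 24.95, 20.48 and 23.01 TPM in ES-Cu. The groups lay well apart, with more spread among the ES-Cu libraries. It rose by 0.97 (SE 0.0813, adjusted p = 7.00e-07, limma), a ratio of means of 2.05, and by 1.49 after median scaling. All 9 tested MTF1 targets were called higher as deposited (13.6% of all tested genes) and 8 rose on all 3 scales (13.5%). Both counts include 3 metallothioneins listed at 0 in all controls. These passed the filter only through ES-Cu and could only be called higher. MT1A, at 0 in control and 0.37 TPM on average in ES-Cu, did not pass the filter. The median was 3.69, beside -0.50 for all tested genes, and 3.25 without those 3 metallothioneins, whose fitted change depends on the pseudocount. SLC30A1, the zinc exporter and the only target here that is not a metallothionein, went from 8.47, 8.12 and 6.74 TPM in control to 51.99, 50.66 and 50.20 TPM in ES-Cu (2.57). MT1M was at 1.34, 7.06 and 5.33 TPM in control and 816 to 1008 TPM in ES-Cu (7.56). MT1B, MT1G and MT1H were the 3 tested genes listed at 0 in control, with ES-Cu means of 220 ± 40.7, 10.2 ± 5.93 and 60.6 ± 12.9 TPM. Reads of the MT1 paralogs, which are much alike, may have been assigned to the wrong copy. MT2A, the gene without the same call on all scales, had 1.48 as deposited and 2.04 after median scaling. It was the highest gene of every library, so quantile normalization gives it 1 value throughout and cannot show a change.

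HSF1 had the lowest fold change of the 10. It was at 37.16, 33.48 and 36.63 TPM in control and at 23.20, 23.07 and 31.47 TPM in ES-Cu. ES-Cu replicate 3 stood apart from the other 2 of its group and close to the lowest control, without overlap. The log2 fold change was -0.46 as deposited (SE 0.105, adjusted p = 0.00159, limma) and -0.61 without ES-Cu replicate 3. It was 0.08 after median scaling (adjusted p = 0.527) and -0.06 after quantile normalization (adjusted p = 0.593), so no direction is given, and the deposited value lies close to the -0.50 of the median gene. The 3 genes nearest to HSF1 in pattern were HGSNAT (distance 0.165), SAP30L (0.171) and ZNF692 (0.173), and 0 of the 3 were called with the same sign on all scales.

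HSF2, a heat shock factor that can form mixed trimers with HSF1, was at 24.02, 26.62 and 24.62 TPM in control and 25.67, 29.54 and 28.42 TPM in ES-Cu. The lowest ES-Cu library, replicate 1, lay below the highest control, replicate 2. The log2 fold change of 0.15 was not called as deposited (adjusted p = 0.0711, limma). It was called without control replicate 2 (0.19, adjusted p = 0.0403), without ES-Cu replicate 1 (0.20, adjusted p = 0.0220), after median scaling (0.68, adjusted p = 1.68e-05) and after quantile normalization (0.55, adjusted p = 7.03e-05). The ratio of HSF2 to HSF1 was 0.646, 0.795 and 0.672 in control and 1.11, 1.28 and 0.903 in ES-Cu. HSF1 was thus the higher transcript in all control libraries and HSF2 in 2 of the 3 ES-Cu libraries, ES-Cu replicate 3 being the exception (log2 difference 0.63, exact permutation p = 0.1, 0.12 adjusted over the 6 ratios). HSF4, a lens-associated relative, fell from 3.49 ± 0.932 to 0.900 ± 0.226 TPM (-1.23).

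**Figure D3:**
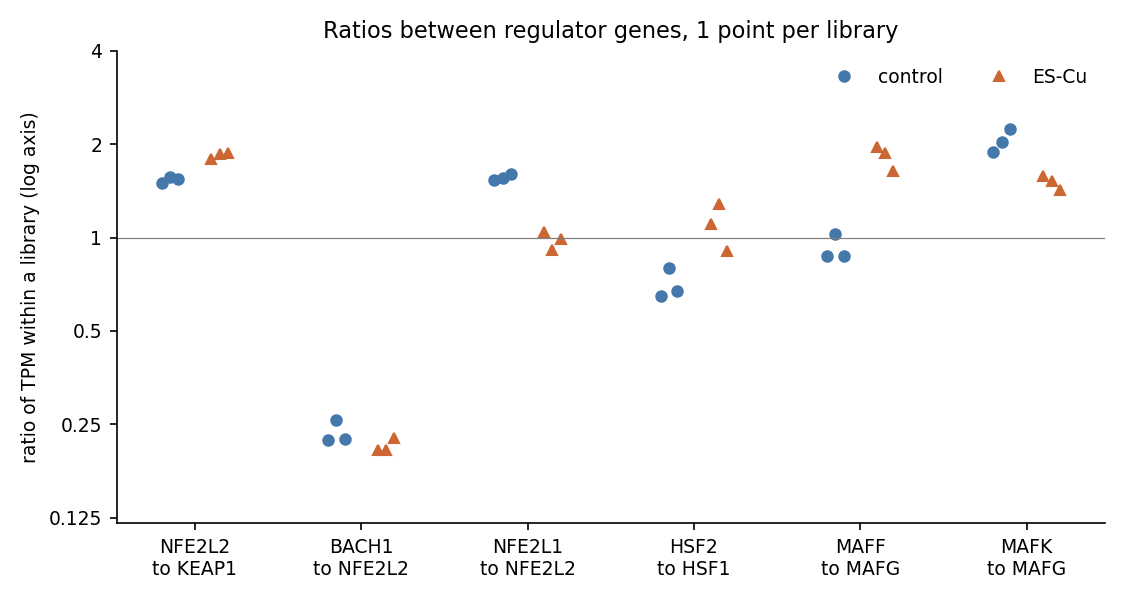
Ratio of TPM of 2 regulators within each library (1 point per library), on a log axis with a line at a ratio of 1, for the 6 pairs compared. Ratios of NFE2L2 to KEAP1, HSF2 to HSF1 and MAFF to MAFG are higher in ES-Cu, those of NFE2L1 to NFE2L2 and MAFK to MAFG are lower, and BACH1 to NFE2L2 overlaps.

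Of 11 tested genes that hold, modify or remove HSF1 protein, 7 rose (13.5% of all tested genes) and 1 fell (31.2%) on all 3 scales. As deposited 7 were higher (13.6%) and 3 lower (70.0%), with a median of 0.47, beside -0.50 for all tested genes. HSPA8, the constitutive HSP70 chaperone, rose from 1616 ± 45.8 to 7025 ± 186 TPM (2.12) and HSP90AA1, the inducible HSP90, from 1275 ± 21.4 to 4236 ± 149 TPM (1.73). Both are on the HSF1 target list as well, as is HSP90AB1, which also rose (0.64). TTC5, a cofactor of HSF1 and p300, fell from 32.0 to 16.8 TPM (-0.89), whereas the acetyltransferase genes EP300 (0.49) and CREBBP (0.47) and the deacetylase gene SIRT1 (0.44) rose. Of 26 tested HSF1 targets, 23 rose on all 3 scales (13.5% of all tested genes) and the median was 1.66. HSPA6, an HSP70 gene that is nearly silent without stress, was at 0.890, 1.00 and 1.17 TPM in control and at 2423, 2421 and 2375 TPM in ES-Cu (10.22). The inducible HSP70 genes HSPA1A (5.88) and HSPA1B (5.25) are near-identical copies whose reads could be split between them. HSPB1, a small heat shock protein gene, was the target called lower as deposited (-0.68, not called with the same sign on all scales). DNAJB4 (0.19) and SERPINH1 (0.06) were not called as deposited. Both were called higher after median scaling (0.73 and 0.62) and after quantile normalization (0.60 and 0.25).

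**Figure D4:**
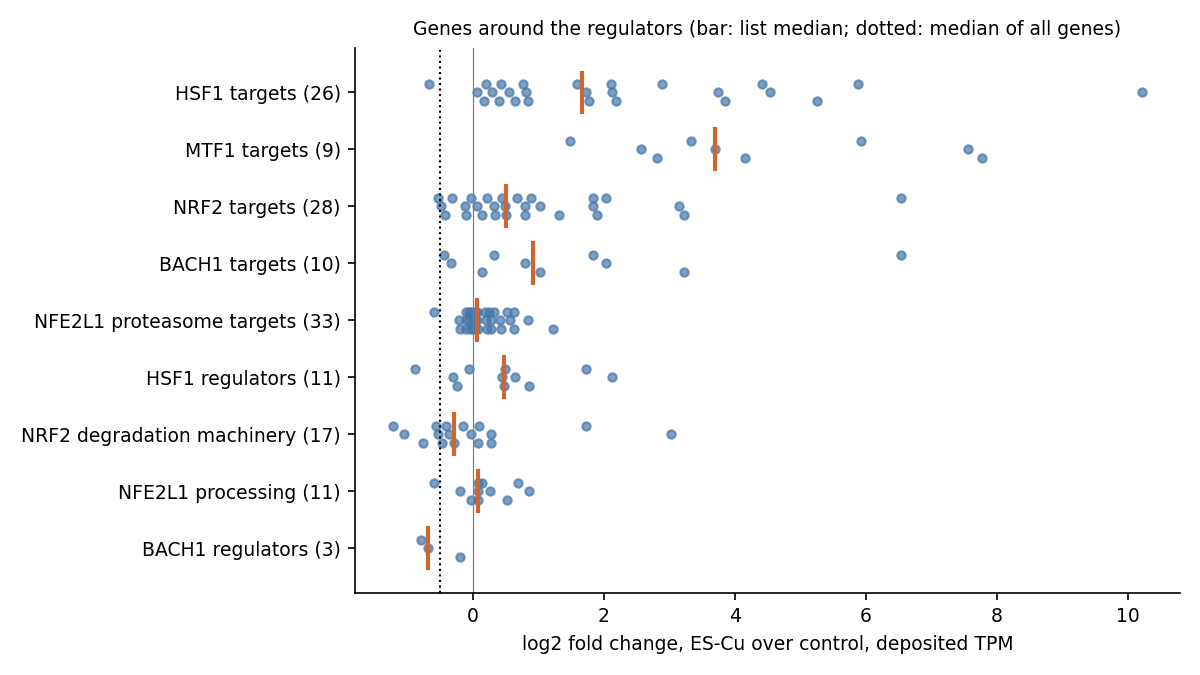
Log2 fold change (ES-Cu against control, log2(TPM + 1) scale) of each tested gene of the lists of regulators and targets, as points, with a bar at the list median and a dotted line at the median of all tested genes, -0.50. Medians run from -0.69 for BACH1 regulators to 3.69 for MTF1 targets, and the highest points of the MTF1 list include genes listed at 0 in control, whose values depend on the pseudocount.

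As levels, which TPM allows to be compared between genes per length, the 10 regulators in control ran in the order NFE2L1 (113 TPM), NFE2L2 (72.4), MAFK (51.1), KEAP1 (47.2), HSF1 (35.8), HSF2 (25.09), MAFG (25.03), MAFF (23.1), BACH1 (17.03) and MTF1 (11.1). The libraries of HSF2 and MAFG overlapped, as did those of MAFG and MAFF, and the other neighbours did not. In ES-Cu the order was MAFF (112 TPM), NFE2L2 (94.0), MAFK (92.5), NFE2L1 (92.2), MAFG (61.3), KEAP1 (51.0), HSF2 (27.9), HSF1 (25.9), MTF1 (22.8) and BACH1 (20.02). NFE2L2, MAFK and NFE2L1 overlapped there, as did HSF2 with HSF1 and HSF1 with MTF1. MAFF thus went from the eighth to the highest of the 10, above every library of NFE2L2.

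**Figure D5:**
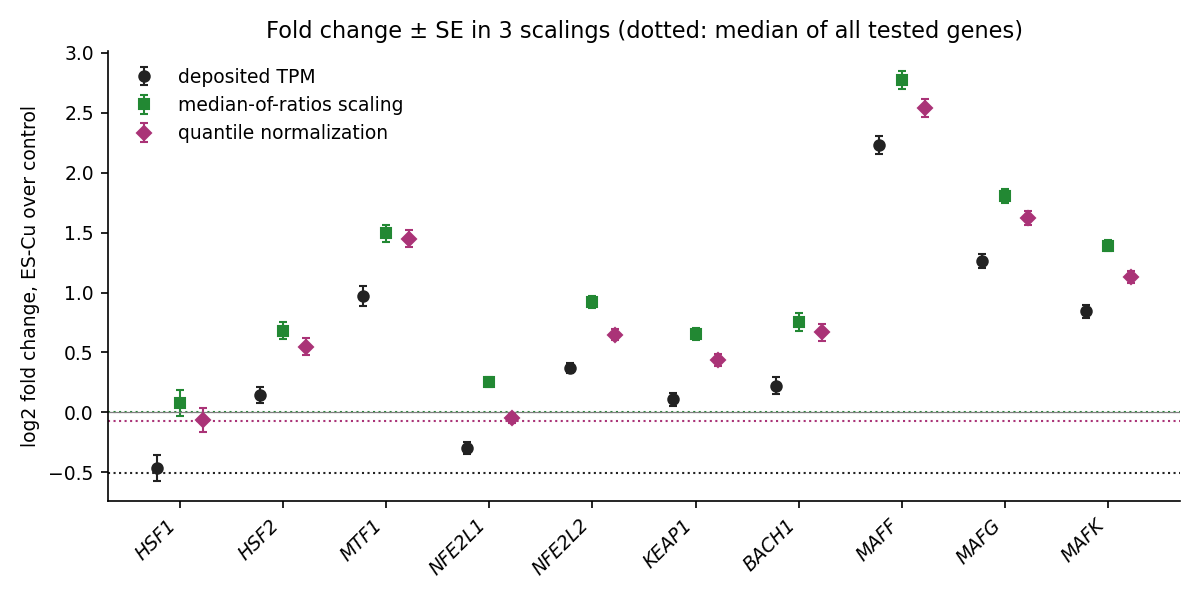
Log2 fold change of each regulator (ES-Cu against control) with its SE on the 3 scales, with dotted lines at the median of all tested genes on each scale. MAFF, MAFG, MTF1, MAFK, NFE2L2 and BACH1 lie above 0 on all 3 scales, and HSF1 and NFE2L1 change sign with the scale.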

How the data were processed

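Per the labels' protocols, total RNA was read from 1 end over 50 bases. The authors deposited TPM for 16809 genes by Entrez identifier and symbol, which sum to 1000000 per library. HISAT, Bowtie2 and GRCm38.p6, a mouse build, are named per the submitters' processing notes, whereas the table lists human genes. Which tool and annotation gave the TPM is not given in the sources used here. TPM keeps no depth, so no counting interval was computed.

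Genes averaging 1 TPM or more were tested by limma 3.58.1 under R 4.3.3, as log2(TPM + 1) (empirical Bayes with trend, two-sided, Benjamini-Hochberg over 11927 genes, threshold 0.05), without a block for the replicate number. Ratios and sums within libraries were compared by exact permutation. The code was tested on simulated data. The regulators, the gene lists and the tests were chosen with earlier results of these data known.

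Named were all 10 regulators, up to 3 genes per list with the largest change among those with an adjusted p under 0.05 and an average of 5 TPM or more in either group, and the 3 genes nearest in pattern to the regulator with the highest and that with the lowest fold change. Some listed genes are not reported here. Start regions came from RefSeq (GRCh38.p14), cropped with GENCODE exons of the same assembly. Alternatives were 2 other scalings, pseudocounts of 0.1 and 0.5, a filter of 5 TPM or none, the table without its 20 highest genes, limma without trend, a replicate block and leaving out each of the 6 libraries.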

Additional observations from a re-analysis of the deposited data

How the results depend on the processing

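Scaling moved the results most. All genes called higher numbered 4532 after median scaling and 3751 after quantile normalization, and all genes called lower 4266 and 4756. The regulators called lower went from 2 to 0 under either. Without the 20 highest genes 2 were called lower by limma, HSF1 (-0.31, adjusted p = 0.0197) and NFE2L1 (-0.14, adjusted p = 0.0177). In that setting 7296 of 11907 tested genes were called lower, and the median tested gene had -0.36. Among the genes named by rule, the log2 fold change turned after median scaling for HSF1 (0.0773), NFE2L1 (0.25), XPO1 (0.36), CD68 (0.23), HGSNAT (0.0817), SAP30L (0.0113) and ZNF692 (0.0242), and under quantile normalization for HGSNAT (0.16), SAP30L (0.11) and the log2 ratio of BACH1 to NFE2L2 (0.0483). Of the other list genes named and called as deposited, TKT (0.24), BLVRB (0.10), EPHX1 (0.00853), ABCC3 (0.0770), SLC48A1 (0.18) and CBR1 (0.0486) turned after median scaling. The epithelial markers KRT17 (0.15), PERP (0.0507) and EPCAM (0.42) turned there too. Under quantile normalization ABCC3 (0.0873), SLC48A1 (0.18) and EPCAM (0.0298) turned. MTF1, NFE2L2, MAFF, MAFG and MAFK kept their direction and call under all 15 alternatives run. Leaving out 1 library gave 1493 to 1590 genes higher and 8070 to 8323 lower.

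The labels do not say whether the replicate numbers pair the samples. Deviations from the group mean correlated at 0.0206, -0.0337 and 0.0107 for numbers 1, 2 and 3. Between unlike numbers they ran from -0.0580 to 0.0431. Such correlations cannot decide whether cultures were paired. A replicate block gave 1614 genes higher and 8343 lower, and 6 and 2 of the regulators. Depth is unknown, so what counting error adds to low genes cannot be given, and 3 libraries a group limit exact tests to p = 0.1.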
